A study of Mus musculus with 4 samples.

Results

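The genes Hspa5, Hsp90b1, Dnajb9, Dnajb11, Dnajc3, Dnajc10, Hyou1, Sil1, Sdf2l1 and Sdf2 encode the Hsp70 and Hsp90 chaperones inside the endoplasmic reticulum (ER) and the proteins that assist them. They were chosen by symbol for that role. They are 10 of the 18193 genes that had at least 1 probe set annotated to a single symbol, and 21 of the 45037 probe sets of the array read them. A floor was set at a signal of 101.3, the median of all signals. A gene counted as measured where it reached the floor on either array of a comparison, as all 10 genes did in every comparison. Of the 21 probe sets, 20 reached this floor. The exception was 1 of the 3 probe sets of Hyou1, whose signals lay between 12.3 and 60.3 and were not used.

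RNA was taken from the tibialis anterior (TA), a fast muscle of the lower leg, and from the heart of C57BL/6J mice at postnatal day 9. The mice either lacked MG56 or were wild type. MG56 is another name of Hhatl, the gene of a membrane protein of the ER and sarcoplasmic reticulum in striated muscle, and the sources used here do not say how its allele was made. Each genotype had 1 array per tissue, 4 in all, hybridised with RNA combined from 3 knockout mice or from wild-type mice whose number the sources used here leave out. No value below therefore has a replicate error, no test was possible, and a fold compares pools of RNA.

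Proteins that enter the secretory pathway fold in the ER lumen. Hspa5 (BiP) is the Hsp70 of this compartment: it binds unfolded chains in a cycle of ATP hydrolysis, which J proteins start and nucleotide exchange factors end by releasing the nucleotide. Hsp90b1 (Grp94) is the Hsp90 of the ER and takes partly folded clients. When unfolded protein builds up, the sensors Ern1, Eif2ak3 and Atf6 start the unfolded protein response, of which many of these chaperone genes are known targets in cultured cells.

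The promoter sequences of the members are shown first because known control elements of this response lie near the start of several of them. The ER stress element, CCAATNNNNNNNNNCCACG, is bound by NF-Y at its first box and by Atf6 at its second, and the ER stress element II, ATTGGNCCACG, holds the same boxes closer together with the first one inverted. RefSeq windows of assembly GRCm38.p6, which run from 250 bases before the annotated start to 50 after it, were matched for 8 of the 10 members. Hyou1 and Sil1 had no entry. The windows of Hspa5 (chr2:34771840-34772139, plus strand), Hsp90b1 (chr10:86705395-86705694, minus strand), Dnajc3 (chr14:118937682-118937981, plus strand) and Dnajb11 (chr16:22857595-22857894, plus strand) are given because each holds one of these elements. The window of Sdf2l1 (chr16:17132334-17132633, minus strand) is given because that gene had the highest knockout ratio in TA and holds neither. Capitals mark a match to either element on either strand, and each sequence reads 5′ to 3′ on the strand of its gene.
Hspa5: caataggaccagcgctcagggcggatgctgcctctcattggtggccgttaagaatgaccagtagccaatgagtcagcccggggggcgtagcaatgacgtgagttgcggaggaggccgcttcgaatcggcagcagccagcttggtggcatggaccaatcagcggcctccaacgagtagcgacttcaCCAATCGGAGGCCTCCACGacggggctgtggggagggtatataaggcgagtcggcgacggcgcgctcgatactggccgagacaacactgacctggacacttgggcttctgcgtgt
Hsp90b1: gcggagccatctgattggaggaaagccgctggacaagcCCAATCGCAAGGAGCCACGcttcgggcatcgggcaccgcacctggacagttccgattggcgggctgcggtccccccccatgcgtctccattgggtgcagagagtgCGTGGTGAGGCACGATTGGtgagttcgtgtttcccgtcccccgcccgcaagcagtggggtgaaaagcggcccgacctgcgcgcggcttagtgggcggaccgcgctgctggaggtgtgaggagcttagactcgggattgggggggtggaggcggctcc
Dnajc3: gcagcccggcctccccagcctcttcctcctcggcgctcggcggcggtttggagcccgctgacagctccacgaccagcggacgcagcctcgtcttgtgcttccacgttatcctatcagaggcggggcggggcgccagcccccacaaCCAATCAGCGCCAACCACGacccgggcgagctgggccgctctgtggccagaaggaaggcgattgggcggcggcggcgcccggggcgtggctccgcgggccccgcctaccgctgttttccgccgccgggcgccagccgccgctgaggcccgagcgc
Dnajb11: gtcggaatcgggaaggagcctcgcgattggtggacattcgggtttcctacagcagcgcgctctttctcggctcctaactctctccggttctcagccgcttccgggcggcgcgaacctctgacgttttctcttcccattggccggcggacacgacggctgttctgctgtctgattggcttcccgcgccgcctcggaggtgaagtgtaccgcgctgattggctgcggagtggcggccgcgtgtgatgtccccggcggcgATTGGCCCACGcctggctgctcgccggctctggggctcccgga
Sdf2l1: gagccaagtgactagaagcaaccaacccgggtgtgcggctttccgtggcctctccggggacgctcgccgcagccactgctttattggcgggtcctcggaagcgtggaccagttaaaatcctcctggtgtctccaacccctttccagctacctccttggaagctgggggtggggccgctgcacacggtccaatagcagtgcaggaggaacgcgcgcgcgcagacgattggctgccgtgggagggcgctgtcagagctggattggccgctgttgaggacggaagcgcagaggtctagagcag

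Exact matches to the ER stress element were in 3 of the 8 member windows and in 37 of the 27025 genes with a window (0.137%). In Hspa5 the match ran from 65 to 47 bases before the start. In Dnajc3 it ran from 105 to 87 bases before it. Hsp90b1 held 2 matches, from 212 to 194 bases before the start on the strand of the gene and from 107 to 89 bases before it on the opposite strand. With up to 1 of the 10 fixed letters different, an alternative added after the data were seen, the 3 members stayed the only ones of the 8, and 466 genes (1.72%) held the element. The ER stress element II was in 1 member, Dnajb11, from base 7 to base 17 after the start, and in 12 genes in all (0.0444%).

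The letters TGACGTGG, the core of the unfolded protein response element, were in 0 of the 8 member windows and in 0.714% of genes. The core ends in the reverse complement of the second box, CCACG. The letters TGATGNAA, the core of the amino acid response element bound by Atf4, were in 0 of 8 and in 4.51% of genes. The single boxes are common: CCAAT was in 6 of the 8 windows against 41.1% of genes, and CCACG in the same 6 against 35.5%. The 6 were Hspa5, Hsp90b1, Dnajb9, Dnajb11, Dnajc3 and Sdf2l1, and neither box was in Sdf2 or Dnajc10. In 5 of these 6, all but Dnajb11, a CCACG lay in the bases before the start. The member windows were between 48.7% (Dnajc10) and 74.3% (Dnajc3) G and C, against a median of 52.7% over 32851 windows. A match describes these letters only.

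**Figure D1:**
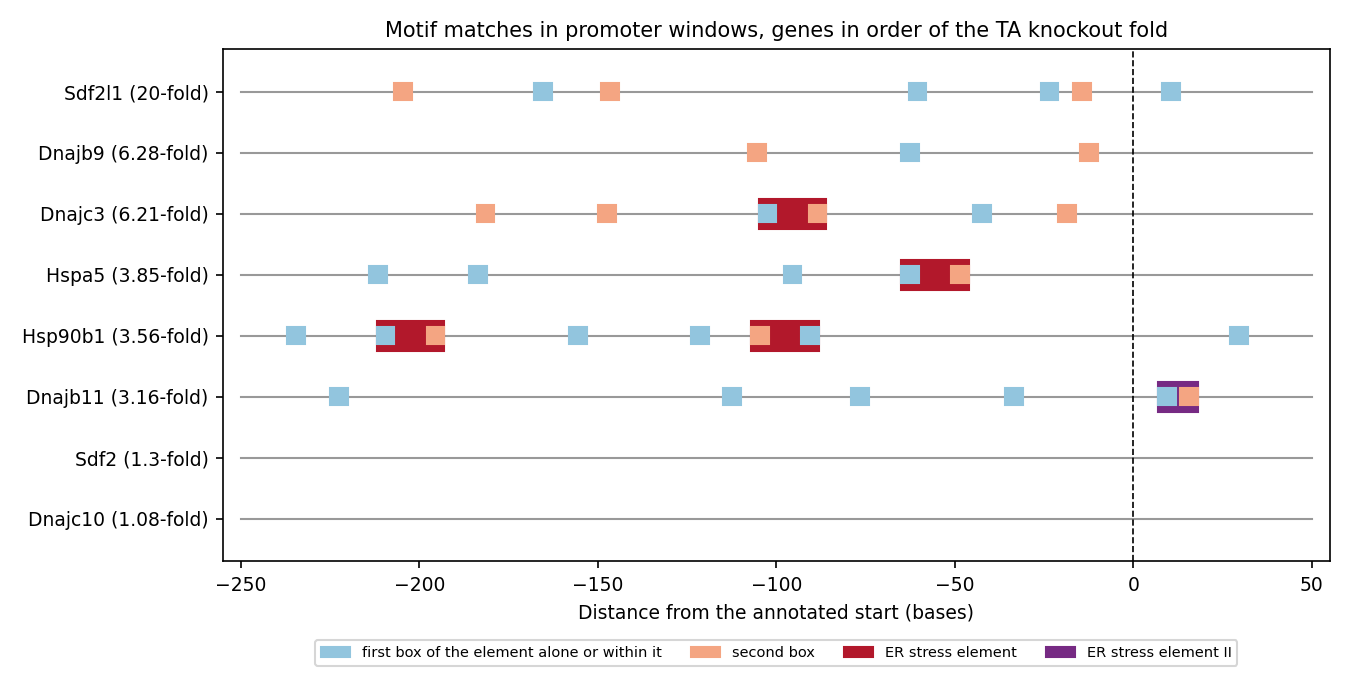
Matches to the ER stress element (red), the ER stress element II (purple) and their boxes alone (light blue and orange) in the 8 promoter windows, by distance in bases from the annotated start (dashed line), with genes in order of the knockout over wild-type fold in TA. The 6 genes at the top, at 3.16-fold or more, hold both boxes, and the windows of Sdf2 and Dnajc10 hold neither. Hyou1 and Sil1 have no window. Over all genes CCAAT was in 41.1% and CCACG in 35.5%, and the share holding both was not counted.

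On the brightest probe set of each gene, 7 members had signals in knockout TA at least 3-fold those of wild-type TA. They encode both chaperones, 3 of the 4 J proteins, 1 of the 2 exchange factors and 1 of the 2 SDF2 family partners. These 7 genes are Hspa5, Hsp90b1, Dnajb9, Dnajb11, Dnajc3, Hyou1 and Sdf2l1. All 7 were past 1.5-fold, the fold used for counts, against 4.19% of the 11528 genes measured in TA. All 7 were also past 2-fold, against 0.954%. No member was 1.5-fold lower (0 of 10, against 4.44% of genes). The members' median log2 ratio was 1.79, and that of all measured genes was -0.01, with the central 95% of genes between -0.73 and 0.72. The other 3 members, Dnajc10, Sil1 and Sdf2, had ratios between 1.08-fold and 1.30-fold. On the brightest probe sets a gap separated 1.30-fold from the lowest of the 7, Dnajb11 at 3.16-fold. Some other probe sets of the 7 genes lay within it, such as those of Hspa5 (1.69-fold), Dnajc3 (1.81-fold) and Hyou1 (2.74-fold). Others of Hspa5 (5.13-fold) and Hsp90b1 (6.89-fold) lay above the value of their brightest probe set.

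Among the chaperones, Hspa5 had a signal of 34481 in knockout TA, 8957 in wild-type TA, 13074 in knockout heart and 12185 in wild-type heart on its brightest probe set. Knockout TA stood above the other 3 arrays, and wild-type TA was the lowest. The knockout ratio was 3.85-fold in TA and 1.07-fold in heart. The other probe sets of Hspa5 gave 5.13-fold (30885 against 6025) and 1.69-fold (2529 against 1494) in TA. All 3 pointed the same way. The log2 ratio ran from 0.76 on the faintest to 2.36, with 1.95 on the brightest, so its size depends on the probe set.

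Hsp90b1 had signals of 24771 in knockout TA, 6956 in wild-type TA, 7492 in knockout heart and 8256 in wild-type heart. As for Hspa5, knockout TA was the only high array. The ratio was 3.56-fold in TA, and in heart the knockout was 1.10-fold lower. The second probe set of Hsp90b1 gave a larger ratio in TA, 6.89-fold (8819 against 1279), and signals of 1450 and 1399 in heart.

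**Figure D2:**
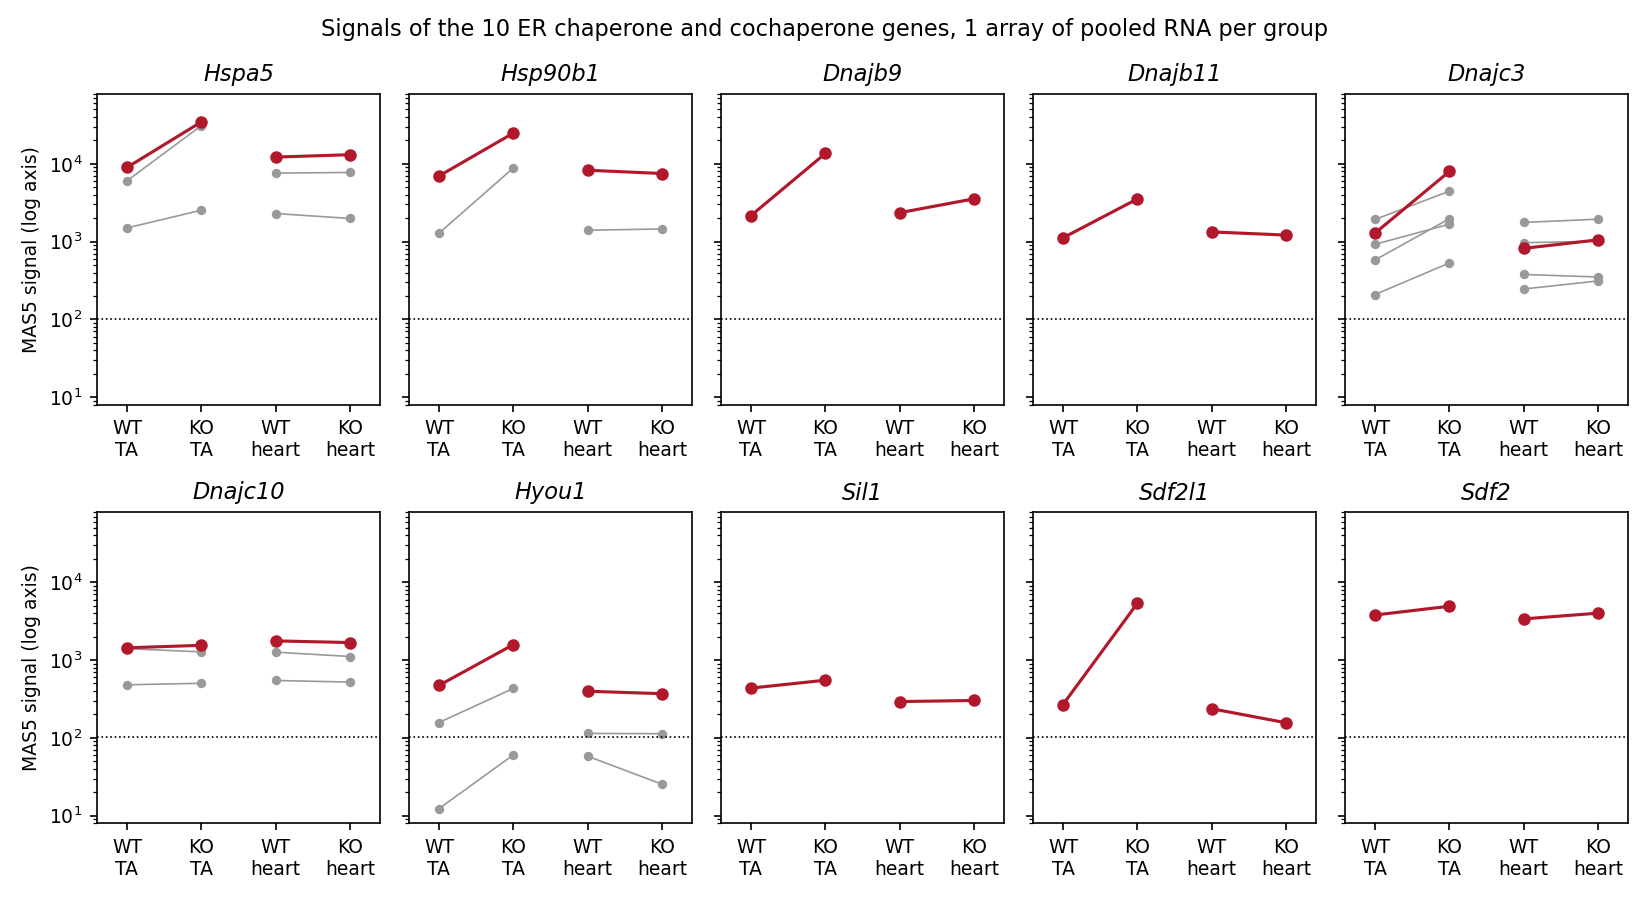
Signal (log axis) of every probe set of the 10 genes on the 4 arrays, wild type (WT) and knockout (KO), with the brightest probe set of a gene in red, its others in grey and the floor of 101.3 dotted. Lines join the arrays of one tissue: they climb in TA for 7 genes and are close to level in heart for most, with Sdf2l1 going from 237 to 156 in heart.

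The J proteins deliver clients to Hspa5 and stimulate its ATPase. Dnajb9 (ERdj4), which also holds the sensor Ern1 in check through Hspa5, had signals of 13553 in knockout TA, 2157 in wild-type TA, 3546 in knockout heart and 2349 in wild-type heart. The knockout array was the higher one in both tissues, by 6.28-fold in TA and 1.51-fold in heart. Dnajc3 (p58IPK), which in cultured cells binds the kinase Eif2ak3 and serves as a J protein of the lumen, had signals of 7973, 1284, 1052 and 817 in the same order. On this probe set Dnajc3 was 6.21-fold higher in TA and 1.29-fold higher in heart. Its mean over the arrays was the highest for the gene only through its knockout TA signal. Another probe set of Dnajc3 was brighter in wild-type TA (1921), knockout heart (1939) and wild-type heart (1761). It gave 2.32-fold in TA and 1.10-fold in heart. All 5 probe sets of Dnajc3 were higher in knockout TA, with log2 ratios from 0.86 to 2.63.

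Dnajb11 (ERdj3), a J protein that binds unfolded clients directly, had signals of 3532 in knockout TA, 1116 in wild-type TA, 1211 in knockout heart and 1330 in wild-type heart. Only knockout TA stood out, by 3.16-fold, and the heart ratio was 1.10-fold lower. Dnajc10 (ERdj5), a J protein with thioredoxin domains that reduces disulfides of proteins bound for degradation, differed from the other J proteins. Its signals were 1546 in knockout TA, 1437 in wild-type TA, 1678 in knockout heart and 1762 in wild-type heart. Its 3 probe sets gave log2 ratios of 0.11, -0.14 and 0.06 in TA, all within the central 95% of genes.

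The exchange factors release ADP from Hspa5. Hyou1 (Grp170), itself a large relative of Hsp70, had signals of 1579 in knockout TA, 472 in wild-type TA, 369 in knockout heart and 397 in wild-type heart. It was 3.35-fold higher in TA on this probe set and 2.74-fold (432 against 157) on the other one that reached the floor. The log2 ratio in heart was -0.11. Sil1, the other exchange factor, whose loss causes ataxia with a vacuolar myopathy in humans, had signals of 550.5, 436, 302 and 293 in the same order. The ratio of Sil1 was 1.26-fold in TA and 1.03-fold in heart, both within the central 95%.

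Sdf2l1 and Sdf2 are paralogs that form a complex with Dnajb11 and keep clients from aggregating. Sdf2l1 had signals of 5369 in knockout TA, 268 in wild-type TA, 156 in knockout heart and 237 in wild-type heart. Knockout TA was far above the other 3 arrays, by 20.03-fold over wild-type TA, the highest of all 11528 ratios in TA. In heart the knockout was the lower array, by 1.52-fold. Sdf2 had signals of 4916, 3792, 4006 and 3382 in the same order, with ratios of 1.30-fold in TA and 1.18-fold in heart. Each paralog has 1 probe set, and their signals cannot be set against each other because they come from different probes.

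**Figure D3:**
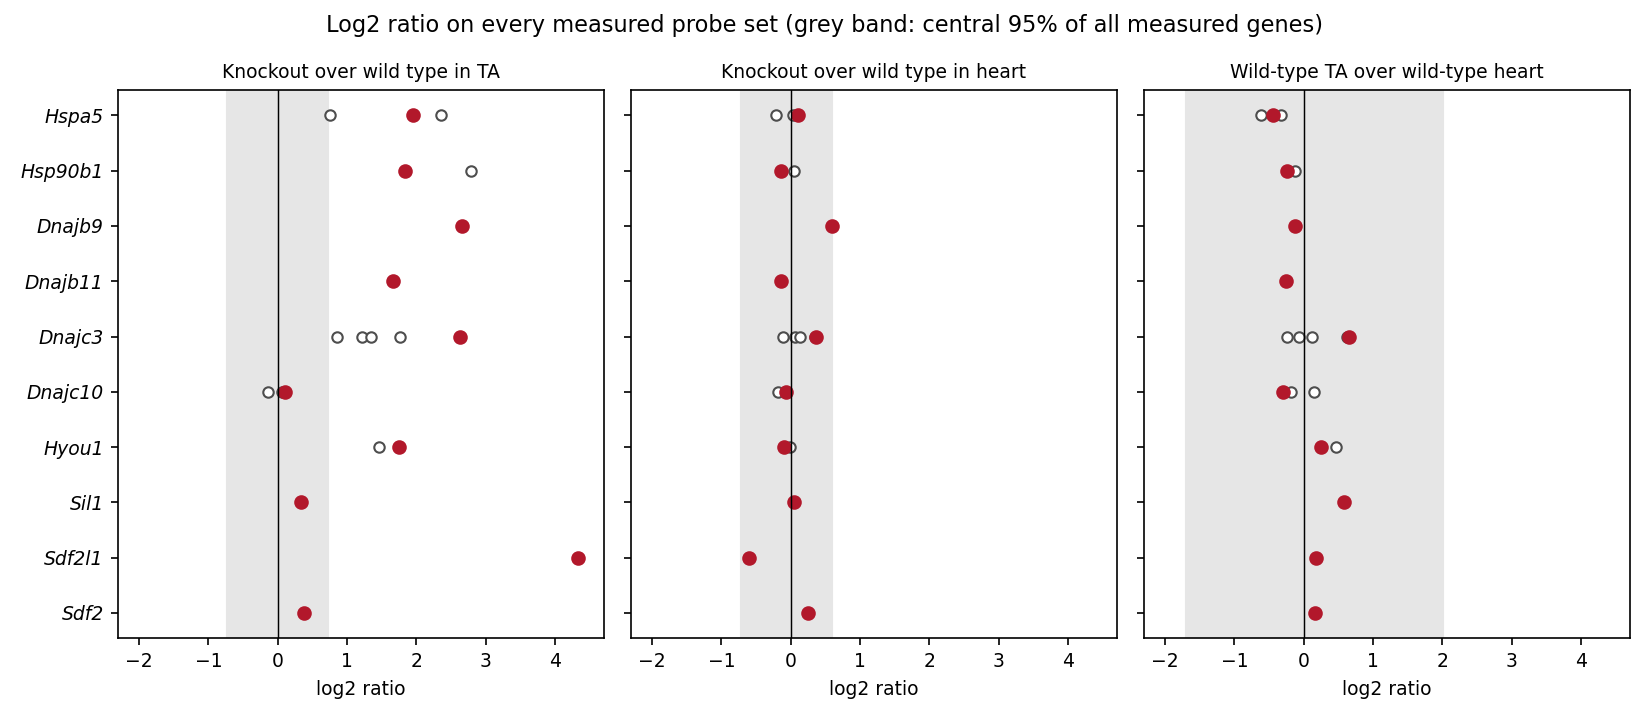
Log2 ratio of each measured probe set of the 10 genes in the 3 comparisons, with the brightest of a gene filled and the others open, and the central 95% of all measured genes in grey. In TA the filled points of 7 genes lie to the right of the band, and in heart and between the wild-type tissues nearly all points lie within it.

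Each gene was ranked among the 11528 by its ratio in TA on its brightest probe set. Sdf2l1 was at place 1, Dnajb9 at 9, Dnajc3 at 10, Hspa5 at 24, Hsp90b1 at 26, Hyou1 at 27 and Dnajb11 at 31. The remaining members were far down the order, with Sdf2 at 1251, Sil1 at 1449 and Dnajc10 at 3841. Ratios of bright genes scattered less. Among the 6990 genes whose TA signals were both at least 4 times the floor, the central 95% ran from -0.58 to 0.65 and 3.26% were 1.5-fold higher in the knockout. Over single probe sets, 19 of the 20 measured were higher in knockout TA. The exception was 1 of the 3 probe sets of Dnajc10. Several of these probe sets read the same gene, and the share of all probe sets that were higher was not counted.

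In heart, the ratios of the members were close to 1. Of the 10 members, 1 was 1.5-fold higher in the knockout (Dnajb9, 1.51-fold), against 2.67% of 11452 genes. Also 1 was 1.5-fold lower (Sdf2l1, 1.52-fold), against 4.18%. The signals of Sdf2l1 in heart, 156 and 237, are close to the floor of 101.3, and both calls lie just past the fold that was counted. The median log2 ratio of the members was -0.01, that of all genes was -0.002, and 5 members lay above 0 and 5 below it. The central 95% of genes in heart ran from -0.71 to 0.59, and Dnajb9, at 0.59, lay at its upper edge, at place 287 of 11452.

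The difference between tissues was taken as the log2 knockout ratio in TA minus that in heart, over 10802 genes measured in both. It was past 1.5-fold in the direction of TA for 7 of the 10 members, against 6.44% of genes, and in the direction of heart for 0, against 5.1%. It was 4.92 for Sdf2l1, 2.27 for Dnajc3 and 2.06 for Dnajb9. The probe set of Dnajc3 that was brighter in wild-type TA and in heart gave 1.07. For Hsp90b1, Hyou1, Hspa5 and Dnajb11 it lay between 1.80 and 1.97. For Sil1, Dnajc10 and Sdf2 it was 0.29 or less. The median over the members was 1.85. With 1 array in each group this difference could not be tested.

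**Figure D4:**
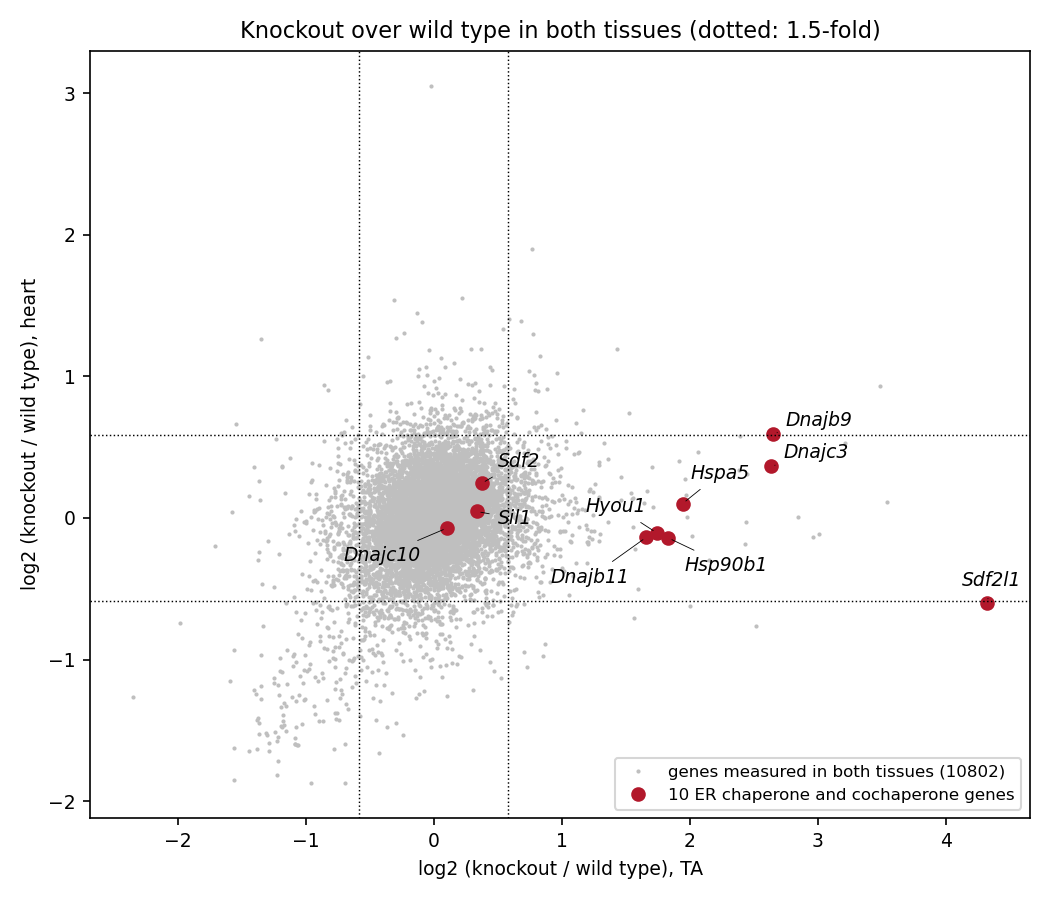
Log2 knockout over wild-type ratio in TA (horizontal) and heart (vertical) for the 10802 genes measured in both tissues (grey) and the 10 members (red), with 1.5-fold dotted. The 7 genes that differed in TA lie far to the right at heart ratios between -0.60 (Sdf2l1) and 0.59 (Dnajb9), and Sil1, Sdf2 and Dnajc10 lie in the central cloud.

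Between the wild-type tissues, the ratios of the members ran from 1.36-fold under heart (Hspa5) to 1.57-fold over it (Dnajc3). The array pair shares the wild-type arrays with both knockout comparisons. Of the 10 members, 1 was 1.5-fold higher in TA (Dnajc3), against 14.5% of 11872 genes, and 0 were 1.5-fold lower, against 18.0%. The median log2 ratio was 0.02, that of all genes was -0.07, and the central 95% of genes ran from -1.70 to 2.01. Sil1 was next highest at 1.49-fold, and Hsp90b1 was 1.19-fold under heart. The value for Dnajc3 depends on the probe set: its 5 probe sets gave log2 ratios on both sides of 0, and the faintest measured one gave -0.24. Taking the median over its probe sets gave 0.12. In bulk tissue, fewer cells of a type and less RNA per cell cannot be told apart.

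The genes whose pattern was nearest to that of Hspa5 were found by the Euclidean distance over the 3 log2 ratios (both knockout ratios and wild-type TA over heart), among 10771 genes and over 4 arrays. Outside the members the nearest were Ddit3 (distance 0.197), Ero1b (0.242), Stum (0.327), Atf3 (0.393) and Sel1l (0.447). For Hsp90b1 they were Stum (0.234), Pdia6 (0.323), Ddit3 (0.333), Sel1l (0.339) and Cdk2ap2 (0.362). Among the members, Dnajb11 was the nearest of all genes to Hsp90b1, at 0.171, and Hspa5 and Hsp90b1 were 0.332 apart. Sdf2l1 was the farthest member from both, at 2.56 from Hspa5 and 2.57 from Hsp90b1. Each distance uses the brightest probe set of a gene. Over the probe sets of a gene the TA log2 ratio ranged by 1.60 for Hspa5 and 0.95 for Hsp90b1. Both ranges are wider than the distances of the genes named as nearest, so their order depends on the probe set chosen. These distances describe 4 arrays and carry no error.

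For the other partners of Hsp70 and Hsp90 in the ER, the median log2 knockout ratio in TA was 0.38. Of 12 measured genes, 0 were 1.5-fold lower in knockout TA (all genes 4.44%) and 5 were higher (all genes 4.19%). They were Ficd, which adds AMP to Hspa5 and removes it (2.76-fold, 545 against 197), Sec63, a J protein of the translocon (2.11-fold), Hspa13, an Hsp70 relative of microsomes (1.98-fold), Dnajb12, a J protein of the ER membrane (1.54-fold), and Cnpy3, a cochaperone of Hsp90b1 for Toll-like receptors (just past 1.5-fold, 392 against 261). With the floor at the 75th percentile of signals, 2 of the 5 stayed past 1.5-fold. In heart, 0 of the 12 were past 1.5-fold in either direction, where 2.67% of all genes were higher and 4.18% lower. A count of 0 says little in lists this short.

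The Hsp70 and Hsp90 machines of other compartments gave smaller ratios in TA. In the cytosolic list, 3 of 30 genes were 1.5-fold higher (all genes 4.19%) and 0 lower (all genes 4.44%), with a median of 0.08. The 3 were the inducible Hsp70 genes Hspa1a (2.20-fold, 610 against 277) and Hspa1b (1.92-fold), which are nearly identical copies that probes may not tell apart, and Bag3, an exchange factor of muscle (1.53-fold). The J protein gene Dnajc7 had a log2 ratio of -0.53. Hspa8 and Hsp90aa1, the cytosolic counterparts of Hspa5 and Hsp90b1, were named here after their values were seen. Hspa8 had signals of 22093 in knockout TA and 20685 in wild-type TA (1.07-fold), and Hsp90aa1 6831 and 6482 (1.05-fold). In the mitochondrial list, 0 of 9 were 1.5-fold higher or lower and the median was 0.10; Hspa9, the mitochondrial Hsp70, had the largest log2 ratio at 0.57, and Dnaja3, Hspe1 and Hspd1 had 0.44, 0.18 and 0.16. In heart, 0 of 30 and 0 of 9 were past 1.5-fold in either direction, beside 2.67% of all genes higher and 4.18% lower. Against the 4.19% of all genes, 5 of 12, 3 of 30 and 0 of 9 are shares of short lists written with earlier results of these arrays known. The counts of 0 lower in TA stand beside 4.44% of all genes and say little in lists this short.

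**Figure D5:**
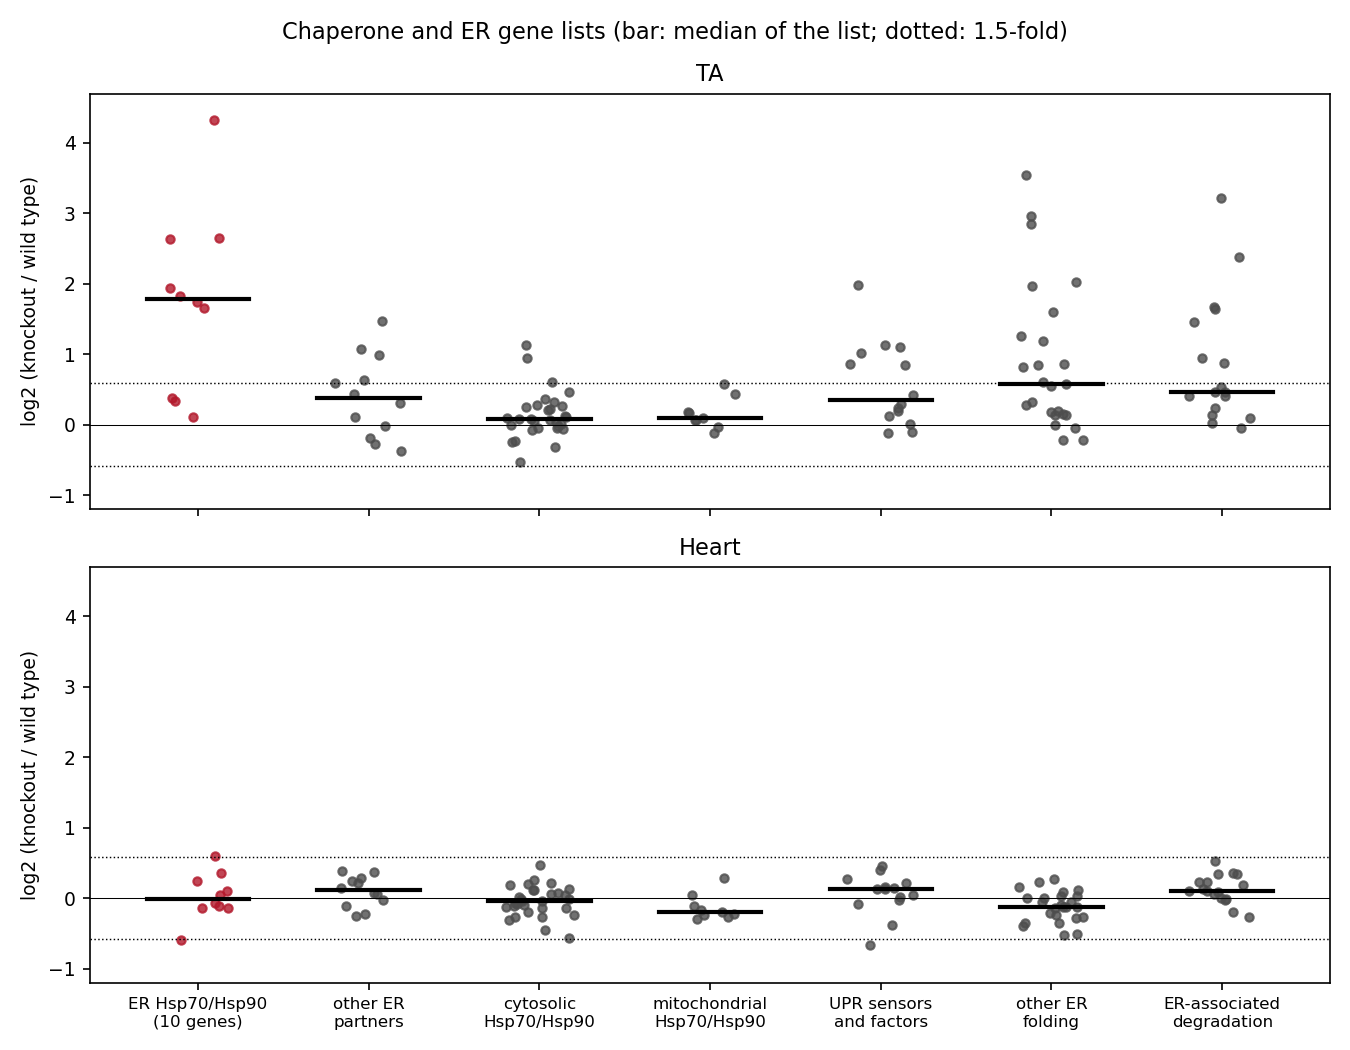
Log2 knockout over wild-type ratio of each gene in TA (upper panel) and heart (lower panel) for the 10 members (red) and 6 other lists (grey), with the median of a list as a bar and 1.5-fold dotted. In TA the median is 1.79 for the members, between 0.35 and 0.58 for the other ER lists and the response factors, and 0.08 and 0.10 for the cytosolic and mitochondrial lists; in heart all medians lie between -0.20 and 0.13.

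In the list of sensors and factors of the unfolded protein response, 6 of 14 genes were 1.5-fold higher in knockout TA, against 4.19% of all genes, and 0 lower, against 4.44% (median 0.35). The largest ratios were those of Ddit3 (CHOP, a transcription factor of the Eif2ak3 branch, 3.93-fold, 2207 against 562), Atf6 (2.19-fold), Ppp1r15a, which directs the dephosphorylation of eIF2α (2.15-fold), and Xbp1, the factor made active through splicing by Ern1 (2.02-fold). The signal of Xbp1 was not split by splice form here. The sensors Ern1 (1.18-fold) and Eif2ak3 (1.15-fold), named after their values were seen, had smaller ratios. In heart, 0 of 14 were higher (all genes 2.67%) and 1 lower (all genes 4.18%). The 1 was Creb3l1, an ER-bound transcription factor, with signals of 132.5 and 211, or 1.59-fold lower.

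Among other ER folding genes, 12 of 25 were 1.5-fold higher in knockout TA and 0 lower (median 0.58), against the same 4.19% and 4.44% of all genes, led by Creld2 (11.6-fold), the disulfide isomerase Pdia4 (7.82-fold), Manf (7.18-fold) and the disulfide isomerase Pdia6 (4.06-fold). Of the genes of ER-associated degradation, 7 of 17 were higher and 0 lower (median 0.47), again beside 4.19% and 4.44%, led by Herpud1 (9.30-fold), Derl3 (5.22-fold), Syvn1 (3.18-fold) and Sel1l (3.12-fold), which are parts of one ubiquitin ligase complex of the ER membrane. In heart, 0 of 25 and 0 of 17 were past 1.5-fold in either direction, beside 2.67% of all genes higher and 4.18% lower.

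The ER stress element of the printed promoters was also in the windows of 34 genes outside the members. Of these, 12 were measured, and 8 were 1.5-fold higher in knockout TA (all genes 4.19%), 0 were lower (all genes 4.44%), and the median log2 ratio was 1.24. The 8 were Creld2, Derl3, Pdia6, Ero1b (3.90-fold), Syvn1, Calr (2.38-fold), Alg12 (2.34-fold) and Canx (1.82-fold), several of which are in the lists above. The other 4 were Acacb, Adcy3, Pan2 and Spats2l, at log2 ratios between -0.40 and 0.20. In heart, 0 of the 12 were past 1.5-fold (all genes 2.67% higher and 4.18% lower), with a median of 0.16. This look at the 34 genes was added after the data were seen.

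The arrays shared 1 scale, with trimmed means from 496.35 to 496.83, and 49.5% to 50.7% of probe sets at or above the floor. The targeted gene Hhatl was 5.09-fold lower in knockout TA (1078 against 5491) and 2.40-fold lower in knockout heart (880 against 2110) on its only probe set. The sources used here do not say whether that probe set reads the deleted part. The labelled tissues matched their markers: all 12 fast skeletal muscle markers were at or above the floor on both TA arrays and 4 of 12 on both heart arrays. All 11 heart markers were so on both heart arrays, against 5 of 11 in knockout TA and 4 of 11 in wild-type TA.

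Markers of other cell types were compared beside the TA result. Plasma cells carry high levels of these chaperones: of their 6 markers, 3 reached the floor in both TA pools, Jchain, Irf4 and Tnfrsf17 were below it on all 4 arrays, and the summed signal was 1011 in knockout TA and 1230 in wild-type TA. Most of that sum was Sdc1 (595.5 against 775), and Mzb1 was the higher one in the knockout (152 against 107, 1.42-fold). The summed signal of the 10 leukocyte markers was 10310 and 9125. Of these, S100a8 was 5.26-fold and S100a9 at least 1.94-fold higher in the knockout, the second against the floor because its wild-type signal of 96.8 lay under it. The other markers that were measured differed less: Lyz2 was 1.21-fold, Ptprc 1.13-fold and Cd68 1.07-fold higher, and Adgre1 and Csf1r were nearly equal. Itgam, Cd3e and Cd79a were below the floor on all 4 arrays. The 9 fibroblast and matrix markers summed to 146900 and 161600, the 8 endothelial markers to 11040 and 12320, and the 12 fast skeletal muscle markers to 391000 and 440900. For those 3 lists the knockout sum was the lower one. It was the higher one for the 11 heart markers (19520 against 18280) and the 4 Schwann cell markers (17700 against 16620). Of the 5 heart markers measured in TA, 4 were higher in the knockout and 1 lower. Myl4, 1.88-fold higher at 6406 against 3417, rose by more than the heart sum. Casq2, the brightest heart marker in TA, was the lower one (10591 against 12651). The 5 adipocyte markers summed to 21830 and 22550, and most of that sum was Fabp4 (21203 and 21937). Of the 8 endothelial markers, 1 was 1.5-fold lower in knockout TA (Egfl7, 1.68-fold, all genes 4.44%) and 0 were higher (all genes 4.19%). In knockout heart, 1 of 4 measured fast skeletal muscle markers was 1.5-fold lower (Casq1, 2.73-fold, all genes 4.18%). So was 1 of 3 measured adipocyte markers, Ucp1, by at least 3.24-fold (30.2, under the floor, against 328). Of 7 leukocyte markers measured in heart, 1 was 1.5-fold higher in the knockout (S100a9, 1.61-fold, all genes 2.67%) and 0 were lower (all genes 4.18%). Of 13 cell division genes, 11 were 1.5-fold lower in knockout TA, against 4.44% of all genes, and 12 in knockout heart, against 4.18%. In TA 1 of the 13, Mcm2, was higher, by 1.52-fold. In knockout TA the Y-linked genes Uty, Kdm5d and Eif2s3y had signals 1.57-fold to 2.71-fold those of wild-type TA, and that of Xist was 1.44-fold lower. The same 3 Y-linked genes were 1.64-fold to 2.29-fold higher in knockout heart. The part of other cell types, cell division or sex in the ratios of the members was not tested.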

How the data were processed

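The deposited table holds 1 signal intensity (linear scale) for each probe set and array; the submitters' processing notes name MAS5 as the tool. The sources used here give neither its version nor its scaling target or detection calls. The arrays were Affymetrix mouse expression arrays, on which sets of short probes read each transcript. Probe sets were named from the platform annotation: 34945 had 1 symbol and were used, 932 had several and 9160 had none. Of those used, 34741 matched a RefSeq gene identifier.

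Signals under the floor of 101.3 were raised to it. The probe set with the highest mean over the 4 arrays stood for a gene. Log2 ratios were taken of knockout over wild type, or of wild-type TA over heart, on the deposited scale, and 1.5-fold was counted. Each group had 1 array, whose number limits the precision, so no test was run. Only probe sets with 1 symbol entered the lists, so listed genes without one were not analysed here. Named were all members, Hhatl, the 5 genes nearest to Hspa5 and to Hsp90b1, and genes behind small counts. Of each list of chaperones, ER genes or response factors, up to 4 with the largest TA ratios were named. So were those past 1.5-fold in heart (up to 2). Of the marker lists only some genes were named. Promoter windows came from RefSeq (GRCm38.p6), and letters were searched on both strands. Protein sequences were not used here. The members and the lists were chosen with earlier results of these data known. The computation was run on simulated data with planted folds and noise smaller than the spread of ratios on these arrays. The check on that run covered planted decreases and genes left unchanged, and not planted increases. Alternatives were 2 other floors and none, other rules for several probe sets, centred ratios, quantile normalization and a 2-fold limit; the faintest measured probe set was added after the data were seen. In them a median counted as moved when it shifted by more than the robust SD of all genes' ratios. Python 3.11.15 with numpy 2.4.6, pandas 2.3.3 and matplotlib 3.10.9 was used.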

Additional observations from a re-analysis of the deposited data

Results flagged for a closer look

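Sdf2l1, the partner of Dnajb11 in the ER, moved in opposite directions in the 2 tissues: it was 20.03-fold higher in the knockout pool in TA and 1.52-fold lower in heart. The log2 knockout ratio in TA minus that in heart was 4.92, the highest of 10802 genes. With 1 array in each group the difference was not tested, and the heart signals of 156 and 237 are near the floor of 101.3.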

How the results depend on the processing

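Under all 11 alternatives 7 members were 1.5-fold higher and 0 lower in knockout TA. The median of the members in TA ranged from 1.40 to 1.80, and the 1.40 came from the faintest measured probe sets, which also gave a median TA minus heart difference of 1.24. With those probe sets Hspa5 had its lowest log2 ratio in TA, 0.76, and Sdf2l1 ranged from 3.51 to 4.33 over its alternatives, lowest with the floor at the 75th percentile. In heart the count of members higher became 0 at 2-fold, and the count lower became 0 at 2-fold and with the floor at the 75th percentile, where Sdf2l1 is no longer measured. Between the wild-type tissues, the count higher in TA became 0 with the median or the mean over probe sets, at 2-fold and with the faintest probe sets, and 2 with centred ratios and with quantile normalization over 4 arrays, where Sil1 joined Dnajc3. The count lower became 1 with the faintest probe sets, where Hspa5 was at -0.62. Dnajc3 reversed there, to -0.24. The ER stress element II was in 0 member windows when only the 250 bases before the start were searched, since the match in Dnajb11 lies after it. Why probe sets of a gene differ was not tested. Of 285 values of single members under an alternative, 279 stayed on their side of 1.5-fold; among these, 2 heart ratios under 1.5-fold changed sign with the faintest probe sets, Hspa5 from 0.10 to -0.21 and Hsp90b1 from -0.14 to 0.05. Also, of 384 counts of the other lists, 355 stayed within 1.5 times. No paired analysis was possible because each group has 1 array and the result comes from no test. The planned description of proteins was not run. Pooling leaves the spread between mice unmeasured, and signals near the floor, such as those of Sdf2l1 in heart, are the least certain.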

Other observations

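Of the 14 sensors and factors of the unfolded protein response, 3 were 1.5-fold lower in wild-type TA than in wild-type heart and 0 were higher, close to the 18.0% of all genes that were lower, so the count says nothing particular of the list. The 3 were Xbp1 (3378 in TA and 6953 in heart), Atf6 (888 and 1522) and Creb3l2 (920 and 1922), and with the faintest measured probe set of each gene the count was 1. In knockout TA, Xbp1 was at 6832, Atf6 at 1942 and Creb3l2 at 1226. These are values of single arrays, chosen after they were seen.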
